A study of Mus musculus with 12 samples.

Results

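Messenger RNA of 58 translation initiation and elongation factor genes was followed through the adult life of the mouse lung. The genes are the protein-coding ones among 35275 genes measured whose symbols begin with Eif1 to Eif6 or with Eef1 or Eef2. Of 63 such symbols, 5 were left out, those of the eIF2 kinases (Eif2ak) and of the Y-linked Eif2s3y. Lungs came from male wild-type C57Bl/6J mice of 3, 6, 12 and 24 months, with 3 mice and 3 poly(A) RNA libraries per age, so that 12 mice gave 1 library each. No agent or allele separated the groups, and the tissue was whole lung, so that fewer cells of a type and less RNA per cell cannot be told apart.

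Initiation factors bring the initiator tRNA and the small ribosomal subunit to an mRNA, and elongation factors then deliver aminoacyl-tRNAs and move the ribosome along. eIF2 carries the initiator tRNA, eIF2B reloads eIF2 with GTP, eIF3 is a scaffold on the small subunit, and the eIF4F complex (eIF4E, eIF4A and eIF4G) binds the mRNA cap and unwinds the leader. mTORC1 signalling releases eIF4E from the 4E-BP proteins, and it also favours translation of mRNAs that begin with a run of pyrimidines, a class to which many elongation factor mRNAs belong.

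Libraries held 14.7 to 21.2 M gene reads. All 3 libraries of 24 months differed from the 9 younger ones. Averaged over reads, the GC content of their genes was 54.4 to 56.1% against 50.4 to 51.8%, and their TMM scaling factors were 0.521 to 0.826 against 1.06 to 1.2. Mitochondrial genes took 0.443 to 0.629% of their reads against 1.65 to 3.12%. Mouse 3 of 24 months was the most extreme, and its correlation of log2 CPM with a 3-month library fell as low as 0.671. Lung epithelium markers were present in all 12 libraries, with none of 10 genes at 0. Results are therefore given both from the reads as deposited and after removal of each library's own relation between reads, GC content and gene length, called corrected values below. CPM is a gene's reads scaled by the TMM-adjusted total of the library. Fold changes are log2 values ± SE, and a gene was called where the edgeR quasi-likelihood adjusted p over 16042 genes was under 0.05.

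Enough reads for a test were found for 56 of the 58 genes. Eif4e1b, an eIF4E of oocytes, had 0 reads in all 12 mice, and Eif4ebp3, a 4E-BP, was listed at 0.333 to 0.895 FPKM at 3 to 12 months and at 0 to 0.183 at 24 months, from 2, 0 and 2 reads. Per length, at 3 months, Eef1a1 stood highest with 2534 ± 308 FPKM (mean ± SD, n = 3), followed by Eef2 with 673 ± 19.7, Eif1 with 342 ± 59.5, Eif5a with 188 ± 31.9 and Eif4h with 186 ± 23.4. Each of the first 3 stood apart from the next by more than the SD, and Eif5a and Eif4h lay within their spread of each other. The tested genes with the lowest levels were Eif3j2 with 0.562 ± 0.175 and Eef1a2, the elongation factor 1A of muscle and neurons, with 2.38 ± 0.769. All 58 together took a share of gene reads that lay between 1.321 and 1.503% at 3 months, between 1.436 and 1.475% at 6, between 1.573 and 1.783% at 12 and between 1.459 and 1.565% at 24 months.

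At 24 against 3 months, 24 members were called higher (42.9%, against 38.2% of all genes tested) and 26 lower (46.4%, against 44.6%). In either direction 89.3% were called, against 82.8% of all genes, a share near the background. The median member changed by -0.14 on the log2 scale and the median gene by -0.29. After correction 26 members were called higher (46.4%, against 29.6% of all genes) and 11 lower (19.6%, against 27.1%), and 66.1% in either direction against 56.8%, with a median of 0.17 against 0 for all genes. Without mouse 3 of 24 months the calls as deposited were 27 higher and 26 lower, with 6144 and 6970 over all genes. Of the 50 calls, 15 stood as higher and 7 as lower in both fits, 10 turned direction and 18 were not called after correction. Of the members' calls, 30% stood as higher and 14% as lower in both fits, against 23.3% and 23.5% of the calls over all genes. From lower to higher 18% turned, against 6.85% over all genes, and from higher to lower 2%, against 3.75%. Calls as higher that were lost after correction were 16%, against 19.1%, and calls as lower 20%, against 23.5%.

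**Figure D1:**
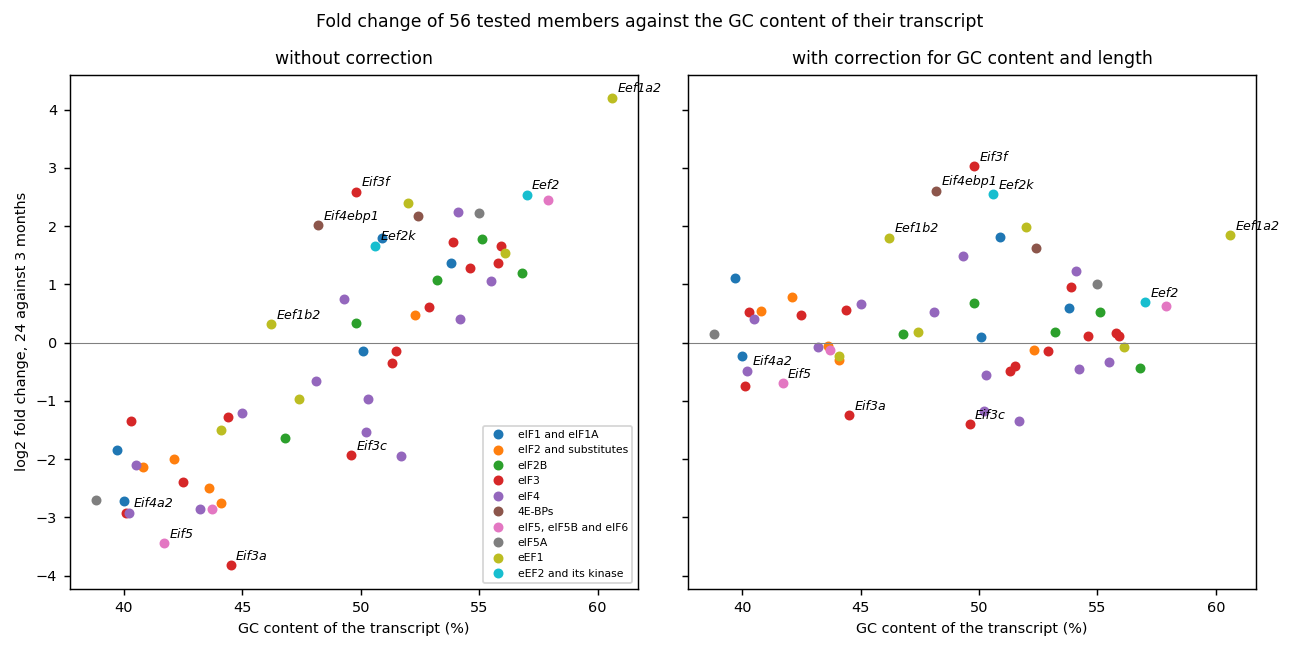
Log2 fold change of the 56 tested members at 24 against 3 months (vertical) against the GC content of the transcript in percent (horizontal), from the reads as deposited (left) and after correction for GC content and length (right). Colours mark complexes. On the left the points rise with GC content, from Eif3a and Eif5 to Eef1a2, and on the right Eif3f, Eif4ebp1 and Eef2k lie highest and Eif3c lowest.

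The direction of a call followed base composition. Members called higher had 48.2 to 60.6% GC with a median of 54.0%, and those called lower 38.8 to 51.7% with a median of 43.7%. Across the 56 genes, which are not independent replicates, Spearman's rho between GC content and fold change was 0.82, and it was 0.82 across all genes with a GC value. With gene length rho was -0.57, and -0.27 across all genes. After correction the rho with GC content was 0.14 and with length -0.35, where all genes had 0.09 and -0.02. Age and library composition cannot be told apart at 24 months, since all mice of that age share both.

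Among the factors that select the start codon, Eif1 rose in both fits. eIF1 keeps the scanning ribosome from starting at poor codons. Its level was 467, 323 and 372 CPM at 3 months, 391, 431 and 461 at 6, 519, 545 and 389 at 12 and 1141, 1264 and 1630.2 at 24 months. All 24-month mice lay above all 9 younger ones. The change at 24 against 3 months was 1.80 ± 0.22 (adjusted p = 2.5e-06), and 1.81 ± 0.17 after correction (adjusted p = 1.1e-06). Eif1b, a close copy of Eif1, rose by 1.37 ± 0.19, or 0.60 ± 0.11 corrected. The eIF1A genes were lower as deposited. Eif1a fell by 2.71 ± 0.29 with no call after correction (adjusted p = 0.093), and Eif1ax changed by -1.85 ± 0.21 before and 1.11 ± 0.19 after correction, both called. Eif1a and Eif1ax are near-identical in sequence, so reads could be split between them, and their handling is not stated in the labels. Eif1ad, an eIF1A-domain protein, was not called in either fit.

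The subunits of eIF2 depended on the correction throughout. Eif2s1, the alpha subunit on which the stress kinases act, stood at 39.5, 34.3 and 38.6 CPM at 3 months, 39.4, 33.8 and 41.9 at 6, 31.4, 31.7 and 50.7 at 12 and 8.56, 10.03 and 6.91 at 24 months. As deposited it was lower in all 24-month mice, with -2.13 ± 0.23 (adjusted p = 7.2e-07). Corrected values were 22.8, 19.3 and 21.2 at 3 months and 25.9, 30.8 and 37.7 at 24 months, which is higher in all 3 mice, with 0.54 ± 0.14 (adjusted p = 0.0044). Eif2s2, the beta subunit, turned in the same way, from -1.99 to 0.78. The gamma subunit gene Eif2s3x changed by -2.75 ± 0.23 and was not called after correction (adjusted p = 0.15), and was called lower there without mouse 1 of 3 months, without mouse 3 of 24 months, and with the transcript nearest in length (-0.43, adjusted p = 0.044). Of the factors that can stand in for eIF2, Eif2a had -2.50 and Eif2d 0.47 as deposited, and neither was called after correction. The call of Eif2d was also lost without 9 of the 12 mice, each left out in turn, with values down to 0.24.

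Of the 5 eIF2B subunits, Eif2b2 rose in both fits with all 12 mice. eIF2B is the exchange factor that the integrated stress response holds back. Eif2b2, the beta subunit, was at 34.1, 27.2 and 30.1 CPM at 3 months, 35.05, 32.9 and 31.2 at 6, 50.6, 50.96 and 41.9 at 12 and 92.8, 101 and 118 at 24 months. The last age did not overlap with the younger ones, which against 3 months was a condition of its choice for this role. It rose by 1.77 ± 0.18 (adjusted p = 5.1e-07), and by 0.53 ± 0.10 corrected (adjusted p = 0.00041). The catalytic subunit Eif2b5 was at 54.7, 43.8 and 48.2 at 3 months, 52.7, 54.8 and 51.7 at 6, 75.97, 75.6 and 57.1 at 12 and 119, 123 and 67.3 at 24 months. Mouse 3 of 24 months was near the 12-month mice there, and the call (1.08 ± 0.23, adjusted p = 0.00039) was lost after correction (0.18 ± 0.18, adjusted p = 0.43). Without that mouse Eif2b5 was called in both fits, with 1.31 as deposited and 0.41 corrected (adjusted p = 0.0045). Eif2b4 turned from 1.20 to -0.44, and its corrected call was lost without mouse 1 or 3 of 3 months or mouse 3 of 24 months. Eif2b3 went from -1.64, called, to 0.15, not called, and Eif2b1 from 0.34, not called, to 0.68, called. As deposited Eif2b1 was called without mouse 3 of 24 months (0.67, adjusted p = 9e-04), and its corrected call was lost without mouse 2 of that age.

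Of the 14 eIF3 genes, 6 were called higher and 6 lower at 24 months as deposited, near the 38.2% and 44.6% of all genes. After correction 5 were higher and 4 lower, where 29.6% and 27.1% of all genes were called. Subunits of the octamer core stood on both sides: Eif3f, Eif3k, Eif3e and Eif3m of the core rose after correction, as did the loosely bound Eif3j1, while the core subunits Eif3a, Eif3c, Eif3h and Eif3l fell. The corrected call of Eif3m (0.56) was lost without mouse 2 or 3 of 3 months or mouse 3 of 24 months, with values down to 0.32. Eif3b, Eif3d, Eif3g and Eif3i, which lie outside the core, were called higher as deposited and not after this correction. Eif3g was called there without mouse 3 of 24 months (0.28, adjusted p = 0.024). Eif3i had -0.15 corrected but 1.75 (adjusted p = 8e-08) with the GC content of the transcript nearest in length, 47.6% in place of 52.9%. As deposited the Eif3i call was lost without mouse 3 of 3 months, mouse 1 of 12 months or any 6-month mouse.

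Eif3f, a core subunit with a deubiquitinase-like fold, had the largest corrected rise of all members. It was at 178, 129.6 and 143 CPM at 3 months, 176, 205 and 158 at 6, 252, 249 and 261 at 12 and 620.4, 695 and 1398 at 24 months. The 24-month mice lay above all others, with mouse 3 at the top. It rose by 2.59 ± 0.29 (adjusted p = 8.6e-07), and by 3.03 ± 0.34 corrected (adjusted p = 1.1e-05). Without each mouse in turn the corrected value was 2.36 to 3.30. Its GC content of 49.8% is near the middle of all genes tested, whose median was 50.3%.

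Eif3a, the largest subunit and the spine of the complex, had the largest fall of the members as deposited. Its level was 236, 225 and 246 CPM at 3 months, 228, 181 and 247 at 6, 99.4, 88.9 and 197 at 12 and 24.3, 20.4 and 4.801 at 24 months. Mice 1 and 2 of 12 months lay below every younger mouse, and mouse 3 of that age lay among the 6-month mice. The change at 24 months was -3.82 ± 0.46 (adjusted p = 1.7e-06), and -1.25 ± 0.26 corrected (adjusted p = 0.0011). Its partner in the core, Eif3c, changed by -1.93 ± 0.23 and -1.40 ± 0.17, with corrected CPM of 172, 156 and 159 at 3 months and 72.6, 61.1 and 50.4 at 24 months.

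Eif3e, a core subunit, showed how far the correction reached. It was at 121, 91.4 and 108 CPM at 3 months, 114, 109 and 112 at 6, 100.5, 87.1 and 183 at 12 and 43.3, 50.4 and 32.6 at 24 months. As deposited the change was -1.34 ± 0.26 (adjusted p = 0.00021). After correction it was 0.52 ± 0.12 (adjusted p = 0.0019), higher in all 3 mice. Eif3j2 is a copy of Eif3j1 with few reads, 0 to 0.218 CPM at 24 months, and reads of the pair may be shared.

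**Figure D2:**
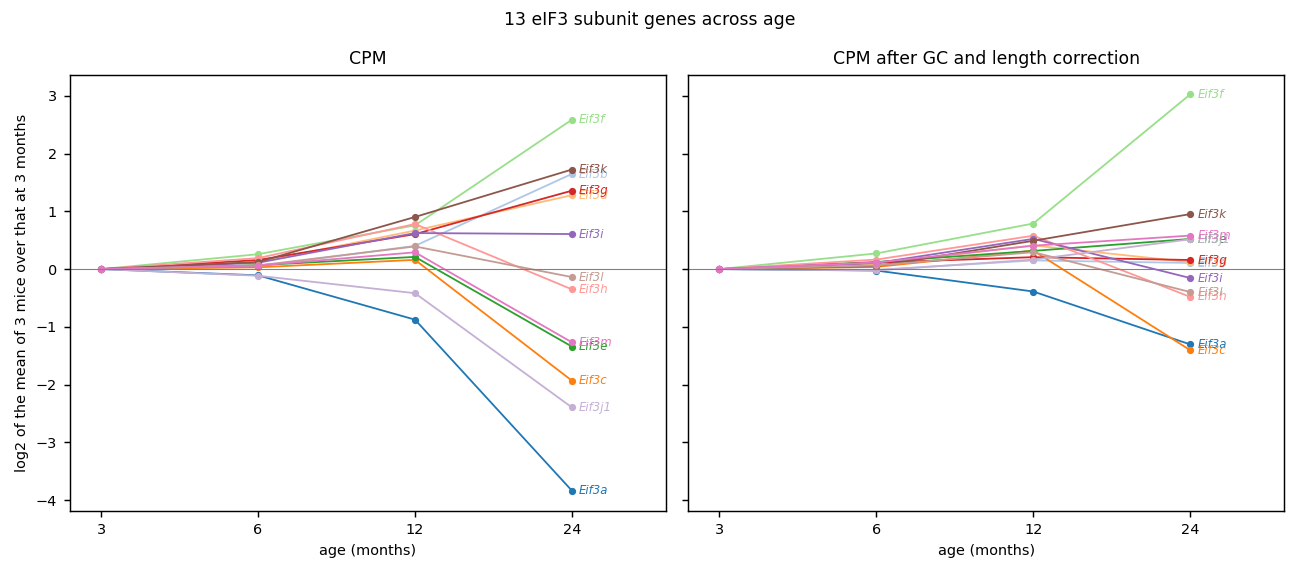
Log2 ratio of the mean of 3 mice at each age to the mean at 3 months (vertical) for 13 eIF3 genes against age in months (horizontal), as CPM (left) and after correction (right). Eif3j2 is left out for its low level. The lines stay within 1 unit of 0 up to 12 months and fan out at 24 months, with Eif3f at the top of both panels and Eif3a and Eif3c at the bottom of the right one.

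Of 12 tested eIF4 genes, 3 were called higher and 8 lower as deposited, where 38.2% and 44.6% of all genes were called. After correction 5 were higher and 5 lower, where 29.6% and 27.1% of all genes were. Eif4a2, one of the pair of cytosolic eIF4A helicases, fell in both fits. It was at 393, 362 and 368 CPM at 3 months, 356, 304 and 378 at 6, 246, 223 and 389.9 at 12 and 58.8, 51.8 and 37.2 at 24 months. The change was -2.92 ± 0.26 (adjusted p = 1.3e-07), and -0.48 ± 0.11 corrected (adjusted p = 0.0018). Eif4a1, the more widely used helicase, was at 319, 245 and 271 at 3 months, 270.4, 273 and 299 at 6, 308, 327 and 346 at 12 and 183, 165 and 179.9 at 24 months. Its change of -0.66 ± 0.18 turned to 0.53 ± 0.16 after correction, and that corrected call was lost without mouse 2 of 3 months. Eif4a3, which serves in the exon junction complex rather than at the cap, rose by 2.24 ± 0.30 and 1.23 ± 0.22.

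The cap-binding protein gene Eif4e was at 50.8, 40.5 and 47.7 CPM at 3 months, 46.9, 43.6 and 48.2 at 6, 32.9, 35.8 and 64.1 at 12 and 11.3, 13.1 and 7.85 at 24 months. As deposited it was lower in each 24-month mouse (-2.10 ± 0.26, adjusted p = 2.9e-06). After correction it was higher (0.40 ± 0.13, adjusted p = 0.019), a call lost without mouse 2 or 3 of 3 months or mouse 2 of 24 months. The value turned again, to -2.26, where the GC content was taken from the transcript nearest in length (51.0%) in place of the longest coding one (40.5%). Eif4e2, a cap-binding homologue without the eIF4G contact, rose in both fits, by 0.75 ± 0.20 and 1.48 ± 0.12. Its corrected CPM was 43.9, 34.6 and 40.5 at 3 months and 106, 113 and 113 at 24 months.

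Of the eIF4G scaffolds, Eif4g1 was at 319, 404 and 406 CPM at 3 months, 354, 421 and 391 at 6, 358, 381 and 214 at 12 and 546, 574 and 374 at 24 months. The ages overlapped, and the test made no call (0.40 ± 0.24, adjusted p = 0.13) except as higher without mouse 3 of 24 months (0.58, adjusted p = 0.02). Corrected, it was -0.46 ± 0.17 (adjusted p = 0.031), a call lost without any of the 3-month mice or without mouse 3 of 24 months, with values from -0.63 to -0.24. Eif4g3, its paralog, fell in both fits, by 1.95 ± 0.22 and by 1.35 ± 0.16. Eif4g2, a cap-independent relative, changed by -2.86 ± 0.31 as deposited and -0.08 ± 0.11 corrected. Eif4b, a cofactor of the helicase, and Eif4enif1, which carries eIF4E into the nucleus and represses mRNAs, were lower in both fits, with corrected values of -0.56 ± 0.17 and -1.17 ± 0.13. The Eif4b call after correction was lost without mouse 2 of 24 months.

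Of the 4E-BP genes, the inhibitors of eIF4E, Eif4ebp1 and Eif4ebp2 rose in both fits, and Eif4ebp3 had too few reads for a test. Eif4ebp1 was at 27.1, 17.5 and 19.5 CPM at 3 months, 24.2, 24.6 and 21.2 at 6, 35.04, 35.1 and 30.6 at 12 and 70.5, 70.8 and 117 at 24 months, with each 24-month mouse above all others. The change was 2.01 ± 0.24 (adjusted p = 1.5e-06), and 2.61 ± 0.24 corrected (adjusted p = 8.8e-07). It was 1.06, still called, with the GC content of the transcript nearest in length. Eif4ebp2 had 34.7, 70.3 and 65.6 CPM at 3 months, 52.7, 81.4 and 56.2 at 6, 65.2, 63.3 and 34.96 at 12 and 179, 238 and 351 at 24 months. Mouse 1 of 3 months was below the other 2 of its age, and the 24-month mice lay above all others. It rose by 2.17 ± 0.33 (adjusted p = 1.9e-05) and by 1.62 ± 0.32 corrected (adjusted p = 0.00088), a call lost with the transcript nearest in length (0.51, adjusted p = 0.13).

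Among the late initiation factors, Eif5, the GTPase activator of eIF2, fell in both fits and Eif6, which keeps the large subunit from joining, rose in both. Eif5 was at 169, 169.8 and 177 CPM at 3 months, 162, 136 and 169 at 6, 97.4, 86.3 and 154 at 12 and 20.6, 18.1 and 8.31 at 24 months, a change of -3.44 ± 0.31 (adjusted p = 1.6e-07) and -0.70 ± 0.11 corrected (adjusted p = 0.00013). Eif6 was at 53.5, 36.6 and 41.6 at 3 months, 46.7, 55.2 and 49.1 at 6, 66.7, 73.2 and 85.9 at 12 and 153, 185 and 377 at 24 months, a change of 2.44 ± 0.30 (adjusted p = 2.1e-06) and 0.63 ± 0.15 corrected (adjusted p = 0.0023). The 3 mice of 24 months did not overlap with those of 3 months in either gene, which for Eif5 was a condition of its choice. Eif5b, the subunit-joining GTPase, was called lower as deposited only (-2.86 and -0.13).

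Eif5a, the carrier of hypusine that eases translation of difficult peptide stretches, rose in both fits. It was at 278, 195 and 221 CPM at 3 months, 243, 259.8 and 240.4 at 6, 371, 384 and 384 at 12 and 796, 825 and 1618 at 24 months. The 12-month mice lay above all younger ones and the 24-month mice above those. The change at 24 against 3 months was 2.22 ± 0.27 (adjusted p = 1.7e-06), and 1.01 ± 0.16 corrected (adjusted p = 9.1e-05). Its paralog Eif5a2 went from -2.70, called, to 0.15, not called. Both enzymes that make hypusine, Dhps and Dohh, rose in both fits, by 2.01 ± 0.25 and 2.65 ± 0.32 as deposited and by 0.73 ± 0.14 and 0.32 ± 0.11 corrected.

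Elongation factor 1 consists of eEF1A, which delivers tRNA, and the exchange subunits eEF1B2, eEF1D and eEF1G. Eef1a1, the most abundant member, was at 4470.2, 3436 and 3769 CPM at 3 months, 4173, 4048 and 4119 at 6, 4929.9, 4986 and 6341 at 12 and 2291, 2067 and 1597 at 24 months. It was lower in all 24-month mice (-0.97 ± 0.20, adjusted p = 0.00032) but not called after correction (0.18 ± 0.11, adjusted p = 0.16). Eef1a1 has processed copies elsewhere in the genome that could share its reads.

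Of the exchange subunits, Eef1g rose in both fits, by 2.39 ± 0.28 and 1.99 ± 0.25. Eef1b2 was at 208, 143 and 160.5 CPM at 3 months, 187, 182 and 179 at 6, 247, 272 and 329 at 12 and 240.01, 231 and 166 at 24 months, and was not called (0.32 ± 0.21, adjusted p = 0.17) except without mouse 3 of 24 months (0.47, adjusted p = 0.022). Its corrected CPM was 148, 113 and 123 at 3 months and 438, 450.02 and 449 at 24 months, a rise of 1.80 ± 0.12 (adjusted p = 8.3e-08). Eef1d was at 116, 75.2 and 86.6 at 3 months, 100.03, 105 and 96.5 at 6, 150.5, 157 and 148 at 12 and 229.6, 239 and 337 at 24 months, and rose by 1.54 ± 0.21 as deposited (adjusted p = 7.4e-06). Corrected, Eef1d had -0.07 ± 0.14 (adjusted p = 0.66), and 2.68 with the transcript nearest in length, whose GC content is 48.0% in place of 56.1%. Eef1e1, a member of the tRNA ligase complex, fell as deposited (-1.50). It was not called after correction (-0.23), and was called lower with the transcript nearest in length (-0.70, adjusted p = 0.0098).

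Eef1a2 had the largest fold change of the members as deposited, 4.20 ± 0.61 or 18.4-fold at 24 against 3 months (adjusted p = 1.5e-05). It was at 5.87, 3.56 and 3.31 CPM at 3 months, 9.96, 8.57 and 2.56 at 6, 15.1, 13.4 and 21.1 at 12 and 48.6, 27.2 and 160.4 at 24 months. The 24-month mice differed among themselves more than any younger group, and mouse 3 was far above the others. Without that mouse the change was 3.15 (adjusted p = 1.7e-05). Corrected, with all mice, it was 1.84 ± 0.45 (adjusted p = 0.004), with 25.2, 12.6 and 34.9 CPM at 24 months against 8.61, 5.93 and 5.59 at 3 months.

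Eef1a2 is expressed in muscle and neurons, and the sums of muscle markers were higher in each 24-month mouse than in any 3-month mouse. The summed level of 10 heart muscle markers, none at 0, was 599.8, 414 and 329.7 CPM in mice 1 to 3 of 3 months, 786, 592 and 318 at 6, 741, 773 and 672 at 12 and 1232, 758 and 1307 at 24 months. For this list mouse 2 of 24 months lay among the 12-month mice. Of the 10, 8 were called higher and 1 lower at 24 against 3 months, against 38.2% and 44.6% of all genes. After correction 3 and 1 were, against 29.6% and 27.1%. At 24 against 12 months 4 were higher and 1 lower, against 37.3% and 42.5%, and 0 and 4 corrected, against 21.5% and 21.8%. The summed level of 10 skeletal muscle markers was 14.7, 12.9 and 10.4 at 3 months, 15.02, 13.1 and 7.37 at 6, 16.2, 18.02 and 27.02 at 12 and 36.2, 23.6 and 368 at 24 months, where Myh2 and Tnnc2 were at 0. At 3 months Myh4 was at 0, at 6 months Myh3, and at 12 months Myh4 and Tnnc2. Of the skeletal list 5 genes could be tested, and 3 were called higher at 24 months as deposited and 1 after correction. The mouse with the highest level of either list at 24 months was the one with the highest Eef1a2. The 10 neuron markers summed to 73.7, 57.3 and 60.8 at 3 months, 57.000, 55.04 and 58.1 at 6, 79.9, 73.2 and 100.3 at 12 and 52.8, 59.5 and 55.6 at 24 months, with Nefl at 0 at 3 and 12 months and Nefl, Nefm and Snap25 at 24 months. Of 6 that could be tested, 2 were called higher and 0 lower at 12 months, against 6.3% and 8.87% of all genes. At 24 against 3 months 3 were higher and 2 lower, and 3 and 1 corrected, beside the shares of all genes given for the heart list. The part of muscle or neuron RNA in the Eef1a2 result was not tested.

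**Figure D3:**
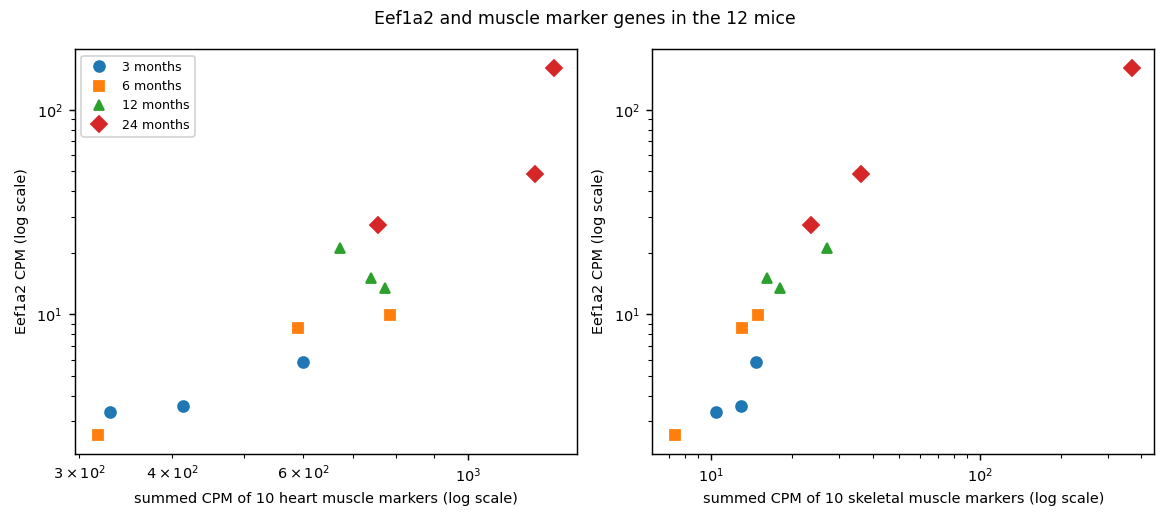
Eef1a2 in CPM (vertical, log scale) against the summed CPM of 10 heart muscle markers (left) and of 10 skeletal muscle markers (right), both on log scales. Each symbol is a mouse and its shape and colour give the age. The mouse at 160.4 CPM of Eef1a2 also has the highest sum of both lists, and the 3- and 6-month mice with the lowest Eef1a2 have the lowest sums.

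Eef2, the translocase, rose in both fits, and as deposited it took more reads than Eef1a1 in each 24-month mouse. It was at 1861, 1692 and 1801 CPM at 3 months, 1935, 2366 and 1908 at 6, 2870.4, 2909 and 2943 at 12 and 6741, 8309 and 16067 at 24 months. The 12-month mice lay above all younger ones and the 24-month mice above those. The change was 2.54 ± 0.28 (adjusted p = 7.5e-07), and 0.69 ± 0.12 corrected (adjusted p = 0.00031). Eef2k, the kinase that switches eEF2 off, rose by 1.66 ± 0.23 and, corrected, by 2.55 ± 0.27 (adjusted p = 4e-06). Its corrected CPM was 28.99, 22.5 and 21.04 at 3 months and 87.97, 113 and 227 at 24 months.

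**Figure D4:**
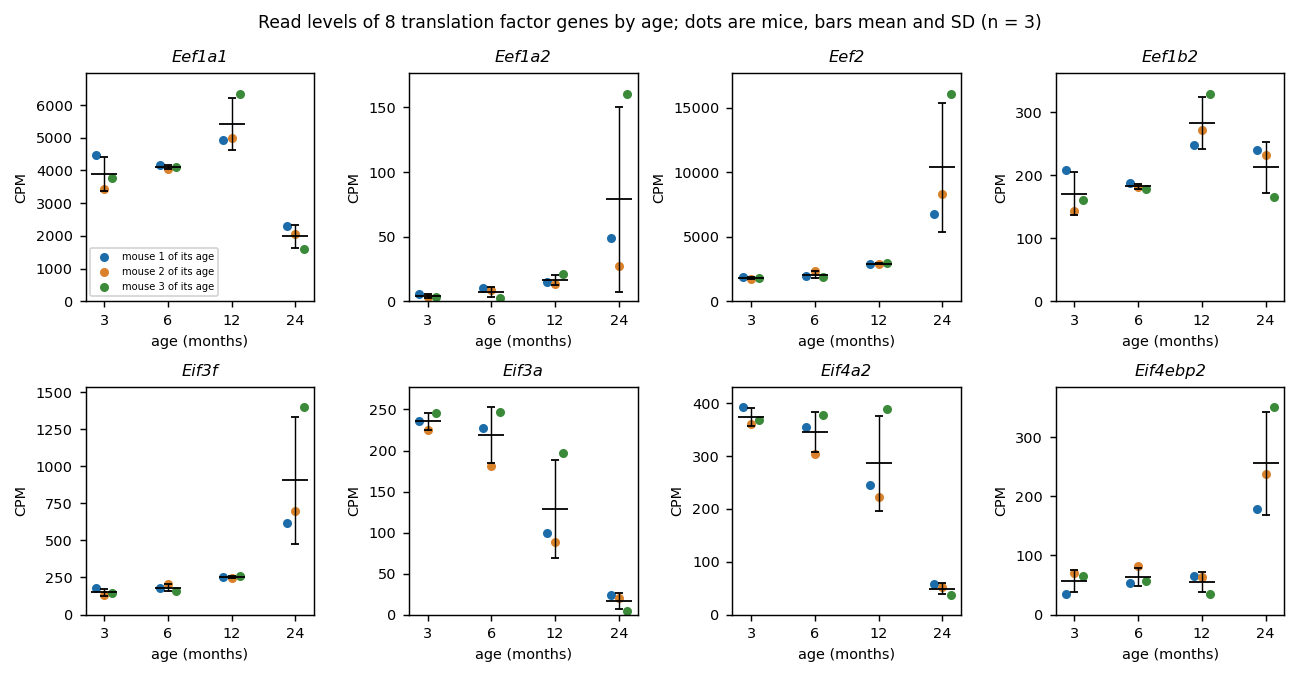
CPM (vertical) of 8 members in each mouse by age in months (horizontal). Dots are mice, the horizontal bar is the mean and the error bar the SD (n = 3 per age). Eef2, Eef1a2, Eif3f and Eif4ebp2 are highest at 24 months, Eif3a and Eif4a2 lowest there, and Eef1a1 and Eef1b2 peak at 12 months.

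Between 3 and 12 months the members leaned upward. At 12 against 3 months 9 were called higher and 1 lower, that is 16.1% and 1.79% against 6.3% and 8.87% of all genes, and 17.9% against 15.2% in either direction. The median member changed by 0.26 and the median gene by -0.02, and 38 of 56 members were positive. After correction 14 were higher and 1 lower, 25% and 1.79% against 10.1% and 8.37% (26.8% against 18.5% in either direction), and without the 24-month libraries 21 and 3, 37.5% and 5.36% against 19% and 17.1%. With both changes 27 were higher and 1 lower, 48.2% and 1.79% against 17.4% and 12.4%. As deposited, fold changes at 12 months also followed composition. Spearman's rho across the 56 members was 0.61 with GC content and -0.68 with gene length, where all genes had 0.47 and -0.43. With correction these were 0.08 and -0.19, where all genes had 0.03 and -0.05. The number of calls moved with single mice. As deposited it was 0 higher without mouse 2 or mouse 3 of 3 months, 4 without any 6-month mouse, 2 and 1 without mouse 1 and mouse 2 of 12 months, and 14 and 21 without mouse 1 and mouse 3 of 24 months. After correction it was 2 and 4 without mouse 2 and mouse 3 of 3 months, 8 without mouse 2 or mouse 3 of 6 months, 9 without mouse 1 of 12 months, 6 without mouse 2 or mouse 3 of 12 months, and 29 without mouse 3 of 24 months. Calls over all genes moved as well. As deposited 1010 genes were higher with all mice, and 72 and 132 without mouse 2 and mouse 3 of 3 months. There were 617 to 640 without a 6-month mouse, and 425 and 245 without mouse 1 and mouse 2 of 12 months. Without mouse 1 and mouse 3 of 24 months there were 1437 and 3080. The sum of 10 plasma cell markers, none at 0, lay between 629 and 689 CPM at 3 months and between 753 and 1005 at 6. It lay between 1659 and 2062 at 12 and between 3098 and 4784 at 24 months. At 12 months 4 of them were called higher and 0 lower, against 6.3% and 8.87% of all genes. At 24 against 3 months 9 were called higher and 1 lower, against 38.2% and 44.6%. Leukocyte markers, 10 genes with none at 0, had sums between 6062 and 7147 at 3 months, 8921 and 12417 at 12, and 3683 and 3996 at 24 months. At 24 months most single genes of that list went against its sum, with 6 called higher and 2 lower, against 38.2% and 44.6% of all genes. Corrected, these were 6 and 0, against 29.6% and 27.1%. The part of these cells in the values was not tested.

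Tested for any difference among 3, 6 and 12 months, Eif3h (adjusted p = 0.032) and Eif3k (adjusted p = 0.042) were called. These were 2 of 56 (3.57%) against 6.43% of all genes, and 7 (12.5%) after correction against 11%. Without the 24-month libraries 19 members (33.9%) were called against 26.5% of all genes, and with correction as well 22 (39.3%) against 21.9%. In the test of 12 against 3 months the members called higher belonged to eEF1, eIF2B and eIF3. From the eEF1 complex these were Eef1a2 (1.95 ± 0.57, adjusted p = 0.036), Eef1b2 (0.73 ± 0.21, adjusted p = 0.035) and Eef1d (0.71 ± 0.21, adjusted p = 0.036). Each of them was higher in all 12-month mice than in any 3-month mouse, with the CPM given above, as were Eef1a1 and Eef1g, not called as deposited. After correction all 3 kept their call, and Eef1a1 (0.51 ± 0.11, adjusted p = 0.0074) joined them. The heart muscle markers were also higher at 12 months, with 7 of 10 called higher against 6.3% of all genes. Their part in the Eef1a2 value was not tested. From eIF2B it was Eif2b2 (0.65 ± 0.18, adjusted p = 0.029).

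From eIF3, 5 of 14 genes were called higher, against 6.3% of all genes. They were the core subunits Eif3h and Eif3k and the outer ones Eif3d, Eif3g and Eif3i. Eif3h was at 167, 135 and 146 CPM at 3 months, 171, 178 and 162 at 6, 229.9, 247 and 293 at 12 and 120.3, 119.5 and 111 at 24 months. It rose by 0.78 ± 0.18 at 12 months (adjusted p = 0.014) and was below its 3-month level in each 24-month mouse, a difference called after correction (-0.48 ± 0.13). As deposited that difference was not called with all mice (-0.35 ± 0.18, adjusted p = 0.082) and was called without 7 of the 12 mice, each left out in turn. Eif3k, a small core subunit, was at 89.3, 66.6 and 72.1 at 3 months, 81.6, 89.7 and 76.8 at 6, 130.3, 135 and 161 at 12 and 191, 211 and 352 at 24 months. It rose by 0.90 ± 0.23 (adjusted p = 0.023).

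Eif3d, which can bind the cap of some mRNAs, had 30.1, 21.8 and 22.2 CPM at 3 months, 28.1, 26.9 and 25.5 at 6, 41.6, 41.6 and 34.6 at 12 and 59.8, 62.1 and 58.2 at 24 months, a rise of 0.67 ± 0.18 at 12 months (adjusted p = 0.027). Eif3g had 82.6, 59.1 and 62.9 at 3 months, 76.6, 75.9 and 75.6 at 6, 109.5, 113 and 88.9 at 12 and 171, 169 and 185 at 24 months, a rise of 0.61 ± 0.19 (adjusted p = 0.042). Eif3i had 75.8, 56.5 and 64.1 at 3 months, 68.9, 75.7 and 67.3 at 6, 100.5, 106 and 96.3 at 12 and 114, 102 and 82.9 at 24 months, a rise of 0.62 ± 0.19 (adjusted p = 0.036). In all 3 genes the lowest 12-month mouse was above the highest 3-month mouse. The same held for members not called as deposited, Eef2, Eif5a and Eif6 among them, so that it is no separate support. After correction Eif3g lost its call (adjusted p = 0.23), and Eif3d, Eif3h, Eif3i and Eif3k kept theirs.

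The gene called lower was Eif4g3, at 152, 184 and 177 CPM at 3 months, 177, 152 and 167 at 6, 113, 106 and 99.6 at 12 and 51.5, 51.1 and 29.6 at 24 months. The change of -0.69 ± 0.21 (adjusted p = 0.042) was -0.07 ± 0.15 after correction (adjusted p = 0.78). The corrected fit called Eif1ad lower in its place (-0.42 ± 0.13, adjusted p = 0.041). Eif4ebp2, so much higher at 24 months, had -0.06 ± 0.32 at 12 months (adjusted p = 0.91).

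**Figure D5:**
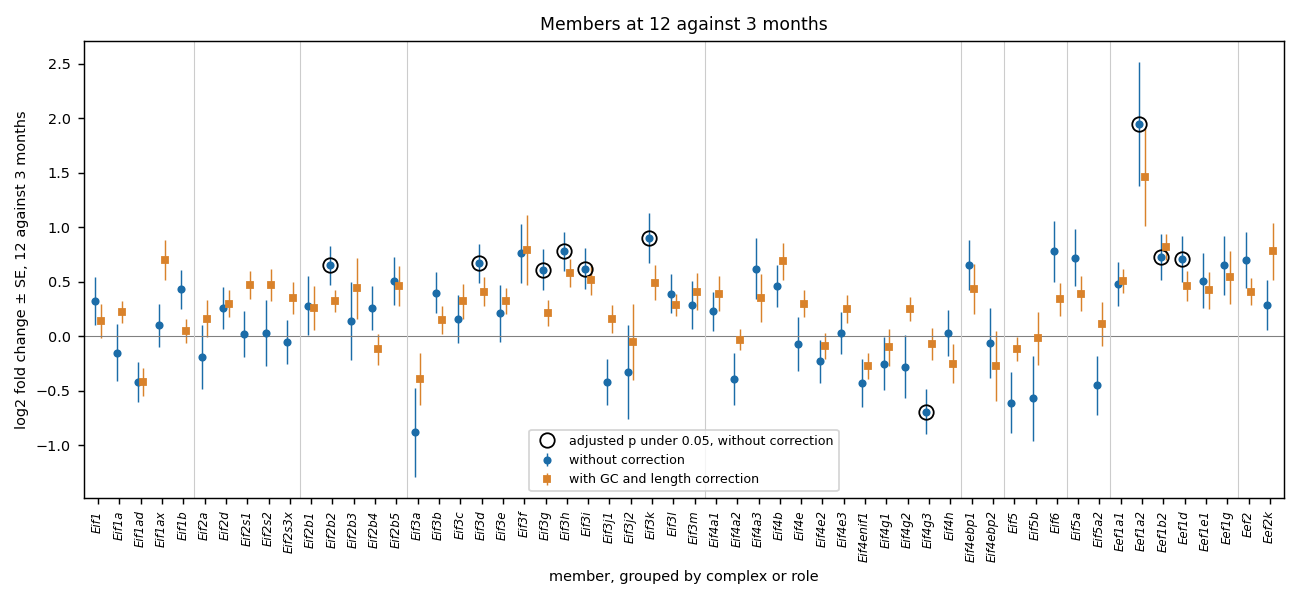
Log2 fold change ± SE at 12 against 3 months (vertical) for the 56 tested members, grouped by complex (horizontal). Blue circles are the reads as deposited, orange squares are after correction, and black rings mark an adjusted p under 0.05 as deposited. Ringed genes are 9 above 0 and Eif4g3 below it.

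The start regions of the members called higher at 12 months are shown because runs of pyrimidines at an mRNA start mark the mTORC1-controlled class. RefSeq start windows (GRCm38.p6) were found for 44 of 58 members, 38 of them with a start within 100 bases of the deposited gene start. Of the 9 genes called higher, 6 are among these 38, and Eef2 and Eif3f, the translocase and the member with the largest corrected rise at 24 months, are added. Each window runs from 30 bases before the start to 30 from it, 5′ to 3′ on the gene's strand, and capitals mark the longest run of C and T between 20 bases before and 30 after the start, which follows the first 30 bases.
Eef1a2: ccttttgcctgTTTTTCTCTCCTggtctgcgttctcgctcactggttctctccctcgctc
Eef1b2: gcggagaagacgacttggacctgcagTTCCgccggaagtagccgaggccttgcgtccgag
Eif2b2: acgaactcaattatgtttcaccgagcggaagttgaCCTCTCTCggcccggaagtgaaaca
Eif3d: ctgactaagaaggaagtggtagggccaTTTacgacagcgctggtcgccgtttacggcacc
Eif3g: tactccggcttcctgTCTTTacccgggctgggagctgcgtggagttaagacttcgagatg
Eif3k: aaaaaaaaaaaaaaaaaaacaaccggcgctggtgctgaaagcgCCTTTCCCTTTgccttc
Eef2: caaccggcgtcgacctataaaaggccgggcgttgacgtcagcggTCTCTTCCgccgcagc
Eif3f: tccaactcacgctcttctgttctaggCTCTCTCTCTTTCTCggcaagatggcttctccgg

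These windows lie at chr2:181156986-181157045 (minus strand), chr1:63176801-63176860 (plus), chr12:85219451-85219510 (plus), chr15:77970795-77970854 (minus), chr9:20898561-20898620 (minus), chr7:28981859-28981918 (minus), chr10:81176601-81176660 (plus) and chr7:108934385-108934444 (plus). The run was 15 bases in Eif3f, 12 in Eef1a2, 11 in Eif3k, 8 in Eef2 and Eif2b2, 5 in Eif3g, 4 in Eef1b2 and 3 in Eif3d. A run of at least 8 was found in 9 of the 38 members, or 23.7%, against 18.8% of 27025 genes in the table. The runs of the members called higher at 12 months that are shown thus ranged from 3 to 12 bases. The run lay wholly before the start in Eef1a2, Eef1b2, Eif3d and Eif3g, and so outside the mRNA. It spanned the start in Eif3f and lay after it in Eif2b2, Eif3k and Eef2. Run length and its share therefore do not measure whether an mRNA begins with pyrimidines. The E-box CACGTG, which reads the same on both strands, lay within 250 bases before to 50 after the start in 23.7% of the 38 and 7.24% of all genes, Eef2, Eif3f and Eif3k among them. CCGGAAG, on either strand, lay there in 34.2% and 9.12%, Eef1b2, Eif2b2, Eif3d and Eif3g among them. A match is a string of letters and was not tested as a binding site.

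Between 3 and 6 months no member was called in either fit, nor did any have an unadjusted p under 0.05, and over all genes edgeR called 0% as deposited and 0.00623% after correction, with 267 genes at an unadjusted p under 0.05 as deposited. DESeq2 and limma voom also called no member. The median member changed by 0.07. At 12 against 6 months no member was called as deposited by edgeR, against 0.48% of all genes called higher and 1.55% lower (2.03% in all), with 13 at an unadjusted p under 0.05. Corrected, Eef1a1 and Eef1b2 were called higher (3.57% of members), against 3.05% of all genes higher and 2.99% lower (6.05% in all). Without the 24-month libraries 14 members (25%) were higher and 2 (3.57%) lower, against 10.9% and 9.06% of all genes. DESeq2 called 6 members higher and 1 lower, where it called 654 and 923 of all genes.

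Between 12 and 24 months 23 members were called higher and 28 lower, 41.1% and 50% against 37.3% and 42.5% of all genes, or 91.1% against 79.7% in either direction. After correction 14 were higher and 17 lower, 25% and 30.4% against 21.5% and 21.8%, or 55.4% against 43.3%. Any difference among the 4 ages was called for 51 of 56 (91.1%), against 84.6% of all genes, and for 43 (76.8%) after correction, against 57.6%. Eif3h, called higher at 12 than at 3 months in both fits, and Eef1a1 and Eif4b, called higher there in the corrected fit, were lower at 24 than at 12 months. Eef1a1 fell by 1.45 ± 0.20 (adjusted p = 1.4e-05) and by 0.33 ± 0.11 corrected (adjusted p = 0.025). Eif3h fell by 1.13 ± 0.18 and by 1.06 ± 0.13 corrected, and Eif4b by 1.41 ± 0.19 and by 1.25 ± 0.18 corrected. The 12-month group takes part in both of these comparisons. Eef1b2 was called higher at both steps in the corrected fit, by 0.82 ± 0.12 at 12 against 3 months and by 0.98 ± 0.12 at 24 against 12 months. The largest corrected rises from 12 to 24 months were those of Eif3f (2.24 ± 0.33), Eif4ebp1 (2.18 ± 0.23), Eif4ebp2 (1.88 ± 0.32), Eef2k (1.77 ± 0.26) and Eif1 (1.67 ± 0.17), none of which was called at 12 against 3 months in either fit of all 12 libraries. Without the 24-month libraries Eif3f (adjusted p = 0.004, and 0.0023 corrected) and Eif4ebp1 (0.012, and 0.032 corrected) were called higher at 12 against 3 months. Eef2k was called there only after correction (adjusted p = 0.0013), and Eif1 and Eif4ebp2 in neither fit.

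Ratios between paralogs, and between the 2 elongation factor genes Eef1a1 and Eef2, were formed within each mouse from FPKM. They differed among the 4 ages only with the 24-month libraries included, where age and library composition cannot be told apart. For Eef1a1 over Eef1a2 the ratio lay between 884 and 1321 at 3 months, 487 and 1868 at 6, 349 and 431 at 12, and 11.6 and 88.3 at 24 months (exact permutation test over the 4 ages, adjusted over 7 pairs, p = 0.0039). Eif4a1 over Eif4a2 lay between 0.580 and 0.695 at 3 months, 0.649 and 0.767 at 6, 0.759 and 1.25 at 12, and 2.66 and 4.13 at 24 months (adjusted p = 0.0018, exact permutation test over the 4 ages). Eif4e over Eif4e2 lay between 1.19 and 1.22 in the 3-month mice and between 0.147 and 0.185 in the oldest (adjusted p = 0.018, exact permutation test). Eef1a1 over Eef2 lay between 3.51 and 4.15 in the 3-month mice and between 0.172 and 0.587 in the oldest (adjusted p = 0.01, exact permutation test). Over 3, 6 and 12 months alone no ratio passed the adjusted exact permutation test, with Eif4a1 over Eif4a2 and Eif5a over Eif5a2 at p = 0.1 and the others at 0.22 to 0.98. The genes of a pair differ in GC content, 48.1 and 40.2% for the helicases and 47.4 and 60.6% for eEF1A, and these ratios are not corrected for it.

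Other genes of translation were counted from lists chosen by function. At 24 against 3 months 38.2% of all genes were called higher and 44.6% lower, and 29.6% and 27.1% after correction. These shares are the background for each list below. Of 7 release and recycling genes, 0 were higher and 6 lower at 24 months as deposited, and 1 and 1 after correction, with medians of -2.09 and -0.16 against -0.29 and 0 for all genes. The release factor genes Gspt1 and Etf1 had -2.57 ± 0.20 and -2.45 ± 0.22, and -0.31 ± 0.13 and -0.02 ± 0.13 corrected, not called. Of 13 genes of the eIF2 kinases and the stress response 6 were higher and 5 lower, and 5 and 4 corrected. Eif2ak4, the kinase GCN2, fell in both fits (-2.87 ± 0.24, and -1.90 ± 0.18 corrected), and Trib3, a target of the stress response, rose (2.41 ± 0.26, and 0.50 ± 0.15 corrected). At 12 months Asns, asparagine synthetase, was higher in both fits (0.85 ± 0.19, adjusted p = 0.013).

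Of 14 genes around mTORC1, 7 were higher and 4 lower at 24 months, against 38.2% and 44.6% of all genes. Corrected, 4 and 5 were, against 29.6% and 27.1%. The medians were 0.70 and -0.04, against -0.29 and 0 for all genes. Pdcd4, an inhibitor of eIF4A, was lower in both fits at 24 months (-2.53 ± 0.22, and -0.39 ± 0.16 corrected) and at 12 months (-1.06 ± 0.20, and -0.80 ± 0.14 corrected). Rps6kb1, the S6 kinase, fell by 3.38 ± 0.33 at 24 months and by 0.53 ± 0.14 corrected. Larp1, which binds mRNAs that begin with pyrimidines, was lower at 12 months (-0.94 ± 0.27, adjusted p = 0.034). Of 5 genes of poly(A) binding 1 was higher and 4 lower, with 1 and 0 corrected, and of 3 helicase and scanning genes 1 and 2, with 0 and 2 corrected. Dhx29 fell in both fits (-2.21 ± 0.22, and -1.0 corrected).

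Of 20 cytosolic tRNA ligases 9 were higher and 9 lower at 24 months, against 38.2% and 44.6% of all genes. Corrected, 6 and 8 were, against 29.6% and 27.1%. The medians were 0.05 and -0.01, against -0.29 and 0 for all genes. At 12 months Sars alone of these was called as deposited (0.68 ± 0.17, adjusted p = 0.022), where 15.2% of all genes were called. Of 6 mitochondrial factors 2 were higher and 3 lower, and 4 and 2 corrected. Tufm, the mitochondrial elongation factor Tu, rose in both fits (2.45 ± 0.30, and 0.93 ± 0.18 corrected), and Mtif2, the mitochondrial initiation factor 2, fell in both (-3.94 ± 0.34, and -1.91 ± 0.23 corrected). Of the pair that inserts selenocysteine, Eefsec rose and Secisbp2 fell in both fits, with 0.46 ± 0.11 and -1.12 ± 0.16 corrected.

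In the authors' deposited table, 0 members were marked as changed at 6 against 3 months, 21 at 12 against 3 months (18 higher, 3 lower) and 51 at 24 against 3 months (25 higher, 26 lower). The deposited table marked 4653 and 13464 of all genes in the latter 2 comparisons.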

How the data were processed

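Poly(A) RNA was sequenced from 12 lungs, 3 mice per age. Lungs were minced, kept in RNAlater, extracted with RNeasy columns and made into libraries with a NEBNext Ultra kit, per the labels' protocols. The authors deposited 1 table with read counts and FPKM per gene and log2 fold changes with p-values and q-values. The submitters' processing notes name TopHat, STAR 2.5, HTSeq 0.6.1 and mm10 with no role, and neither strandedness nor the handling of reads shared by copies is stated there or in the labels. Recomputing the deposited FPKM from counts, lengths and totals matched 235411 of 235411 values within 0.0001.

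Counts were tested with edgeR 4.0.16 (filterByExpr over 4 ages, minimum count 10, TMM, robust quasi-likelihood test, 12 libraries, Benjamini-Hochberg over 16042 genes). The correction removed a joint smooth (mgcv 1.9.3) of each library's gene-centred log2 CPM on transcript GC content and length, as an offset. GC content came from the longest coding GENCODE M21 transcript. Paralog ratios, and that of Eef1a1 over Eef2, were tested on log2 FPKM ratios with exact permutation tests. On simulated counts for 24 against 3 months (15790 genes), 49 of 100 genes changed by 1 log2 unit and 95 of 100 changed by 2 were recovered, with 10 false calls. Few genes were changed there and no GC trend was set, unlike in the 24-month libraries, so that this recovery need not hold for these data. Mouse numbers did not pair the samples: of 18 same-numbered pairs, 4 correlated above 0.1 (median r -0.054). Libraries of the same age differed beyond sampling noise in all 12 pairs.

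Members, lists and tests were chosen with earlier results of these data known. Values in every mouse are given for 15 preselected members, for a member of each role and for members called among the younger ages. The role member had the largest change at 24 against 3 months among those called in the same direction in both fits. Its mice of both ages also had to be free of overlap. The share of all genes without overlap is not given, so that lack of overlap is no separate support for any member. Values of Eif3f and Eif4ebp2 are given outside these rules, chosen after they were seen. Up to 3 genes of each functional list were named by smallest p at 24 against 3 months. Larp1, Asns and Sars were named after their values were seen. Alternatives covered other tools, filters, fits without each mouse or the 24-month libraries, and other corrections. The authors' deposited means per age, of FPKM and of scaled reads, were not used.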

Additional observations from a re-analysis of the deposited data

How the results depend on the processing

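Counts of members called at 24 against 3 months stayed at 22 to 27 higher and 26 to 27 lower, and those at 24 against 12 months at 19 to 24 and 28 to 29, when each mouse was left out in turn. Those among the younger ages moved: at 12 against 3 months 0 to 21 higher and 0 to 4 lower, at 12 against 6 months 0 to 16 and 0 to 3, and for any difference among 3, 6 and 12 months 0 to 20. Calls over all genes moved as well. They were 302 to 5928 at 12 against 3 months, 3 to 3431 at 12 against 6 months and 80 to 4448 for any difference. The causes of these moves were not tested, and 3 mice per age limit the precision of every count. Over 3, 6 and 12 months the largest difference between age means of the log2 ratio was 1.37 to 1.66 for Eef1a1 over Eef1a2, 0.51 to 0.87 for Eif4a1 over Eif4a2, 0.12 to 0.42 for Eif4e over Eif4e2 and 1.00 to 1.57 for Eif5a over Eif5a2 with each mouse left out, and each passed its test at least once.

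DESeq2 called 6 higher and 1 lower at 12 against 6 months and 12 among the 3 younger ages, and limma voom called 6 among them. With no filter 4 were higher and 0 lower at 12 against 3 months, and 1 differed among the younger ages. Fitting only the mice of both ages gave 16 and 2 at 12 against 3 months and 12 and 1 at 12 against 6 months. Without the 24-month libraries there were 21 and 3, and 14 and 2, with 19 among the younger ages. The replicate block, though mouse numbers do not pair the samples, gave 3 and 0 at 12 against 3 months and 0 among the younger ages. Over all genes DESeq2 called 1577 at 12 against 6 months and 2545 among the younger ages, and limma voom called 1554 among them. With no filter there were 2197 at 12 against 3 months and 1206 among the younger ages. Fitting only the mice of both ages gave 3962 and 2215 genes, and the replicate block 1587 and, among the younger ages, 490.

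The GC correction alone gave 11 lower at 24 against 3 months, 18 higher at 12 against 3 months, 4 higher and 1 lower at 12 against 6 months, 13 and 15 at 24 against 12 months and 10 among the younger ages. With length as well these were 11 lower, 14 higher, 2 higher, 14 and 17, and 7. With the replicate block added they were 11 lower, 0 lower at 12 against 3 months, 1 higher at 12 against 6 months, and 14 and 16 at 24 against 12 months. With GC content from the transcript nearest in length, chosen after seeing the data, they were 15 lower, 15 higher, 2 higher, 15 lower at 24 against 12 months and 7. With correction and no 24-month libraries, also chosen after seeing the data, 27 were higher at 12 against 3 months, 13 higher and 1 lower at 12 against 6 months and 22 differed among the younger ages. Over all genes the GC correction alone gave 4597 lower at 24 against 3 months, 1924 higher at 12 against 3 months and 2589 among the younger ages. With the transcript nearest in length these were 4466, 1640 and 1767.

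Fold changes at 24 against 3 months that turned sign with the GC correction were Eef1a1 0.42, Eef1e1 0.77, Eif1ad 0.25, Eif1ax 0.72, Eif2b4 -0.41, Eif2s1 0.42, Eif2s2 0.50, Eif3e 1.22, Eif3g -0.04, Eif3i -0.02, Eif3j1 0.08, Eif3m 0.99, Eif4a1 0.54, Eif4e 0.44, Eif4e3 0.86, Eif4g1 -0.60 and Eif4h -0.26. With GC and length they were Eef1a1 0.18, Eef1d -0.07, Eif1ad 0.10, Eif1ax 1.11, Eif2b3 0.15, Eif2b4 -0.44, Eif2d -0.12, Eif2s1 0.54, Eif2s2 0.78, Eif3e 0.52, Eif3i -0.15, Eif3j1 0.48, Eif3m 0.56, Eif4a1 0.53, Eif4e 0.40, Eif4e3 0.66, Eif4g1 -0.46, Eif4h -0.34 and Eif5a2 0.15. With GC, length and the replicate block they were Eef1a1 0.19, Eef1d -0.06, Eif1ad 0.09, Eif1ax 1.10, Eif2b3 0.13, Eif2b4 -0.45, Eif2d -0.12, Eif2s1 0.54, Eif2s2 0.79, Eif3e 0.53, Eif3i -0.15, Eif3j1 0.49, Eif3m 0.54, Eif4a1 0.51, Eif4e 0.40, Eif4e3 0.65, Eif4g1 -0.49, Eif4h -0.36 and Eif5a2 0.17. With the transcript nearest in length they were Eef1a1 0.17, Eif1ad 0.09, Eif1ax 1.08, Eif2a 0.07, Eif2b3 0.05, Eif2b4 -0.44, Eif2s1 0.44, Eif2s2 0.74, Eif3e 0.48, Eif3j1 0.43, Eif3m 0.80, Eif4a1 1.07, Eif4e3 0.57, Eif4g1 -0.49, Eif4h -0.14 and Eif5a2 0.14.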
